A study of Mus musculus with 8 samples.

Results

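RIKEN clone genes are genes that still carry the name of a cDNA clone from the RIKEN full-length mouse cDNA collection, a symbol that ends in Rik. The deposited table lists 56324 gene models, of which 2677 have such a symbol and 2568 of these lie on chromosomes 1 to 19. They were chosen by their level: a gene was kept where 4 or more of the 8 libraries reached 10 normalized counts (reads divided by a size factor per library). This left 1944 autosomal RIKEN clone genes (75.7%), with 1934 distinct symbols. The other 624 were below that level, and 102 of them had no read in any library. The libraries came from germ cells of 12-week-old C57BL/6 males labelled Sam68 -/-, a knockout of the RNA-binding protein encoded by Khdrbs1. Spermatocytes and spermatids had been separated by sedimentation under gravity (Sta-put), and stranded libraries of polyadenylated RNA had been made from DNase-treated RNA, with 4 libraries of each cell type. Both groups carry the same genotype label, so the comparison is between the cell types under that label. These genes were thus selected on values of the same libraries that are compared below, and 157 of the 1944 genes reached 10 only in spermatid libraries and 16 only in spermatocyte libraries, so these genes had to differ.

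Spermatocytes are the male germ cells in meiosis, in which homologous chromosomes pair and recombine. Spermatids are the haploid cells that follow, and they build the acrosome, the flagellum and the compacted sperm nucleus. The RIKEN collection was made from many tissues, and the first 4 characters of a clone name give its library. The prefixes of 1700001F09Rik, 4921525O09Rik, 4922501C03Rik, 4930440C22Rik, 4931408D14Rik, 4932438A13Rik and 4933406J08Rik, for example, belong to libraries of adult mouse testis, and these 7 are called testis prefixes here. Many RIKEN clone genes are long noncoding RNAs (lncRNAs), while others encode proteins and have since received a gene name elsewhere.

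Reads per library lay between 49000266 and 78060212 in spermatocytes and between 60673309 and 93975960 in spermatids. Khdrbs1 (chr4:129703169-129742304, mm10) had 3808, 3421, 4319 and 4985 normalized counts in spermatocyte libraries and 651, 625, 854 and 1129 in spermatid libraries, so its gene model had reads in all 8 libraries. The labels do not say which part of the gene the allele removes. Of 9 spermatocyte markers 5 were lower in spermatids and 4 were not called, and 9 of 9 spermatid markers were higher. Markers of other cells moved as well. All 9 Sertoli cell markers were lower in spermatids, and their summed level was 35906, 59771, 174820 and 83498 normalized counts in the 4 spermatocyte libraries against 3023 to 8535 in spermatid libraries. All 4 Leydig cell markers found were lower (sums of 3176 to 6857 against 164 to 971), and all 7 macrophage and blood cell markers found were higher (sums of 110 to 179 against 2933 to 6181). Of 7 spermatogonial markers 3 were higher (sums of 868 to 1974 against 2254 to 4920), and 4 of 4 peritubular markers were higher (sums of 166 to 631 against 685 to 1586). No marker was at 0 in all libraries, and the part of these cells in the results below was not tested. Spermatocyte library 3 had the highest Sertoli sum, and spermatocyte library 4 had the lowest value of the spermatocyte libraries for 339 of the 936 RIKEN clone genes called higher in spermatids, against 170, 207 and 220 for libraries 1 to 3. Counts are therefore also given without spermatocyte libraries 3 and 4.

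The 250 bases before the start of 4 RIKEN genes are shown from the RefSeq promoter table (GRCm38.p6), each 5′ to 3′ on the strand of the gene. The first 3 belong to the largest rises described below and were picked because they hold a motif, and 4921513H07Rik is among the largest falls. Other large rises held none of the motifs in these 250 bases, among them 4930440C22Rik, 1700099I09Rik, 4930583P06Rik and 4930513D17Rik. Capitals mark a match, on either strand, to GTTGCCA, a sequence bound by RFX factors that act on genes of cilia and of late spermatogenesis, or to CAGTTG, a sequence bound by MYB factors such as the meiotic regulator A-MYB. No motif was found in the 250 bases shown for 4921513H07Rik. They lie before its RefSeq start, which is upstream of the gene model that was counted, so the bases next to that model are not shown.
1700091H14Rik (chr14:42095278-42095527, minus strand): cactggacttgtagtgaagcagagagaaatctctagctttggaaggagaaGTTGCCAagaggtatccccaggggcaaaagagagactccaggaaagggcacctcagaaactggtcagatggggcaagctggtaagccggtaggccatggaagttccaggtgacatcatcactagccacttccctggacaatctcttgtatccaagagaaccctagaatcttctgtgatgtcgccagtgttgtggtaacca
4930555G01Rik (chr14:5050379-5050628, plus strand): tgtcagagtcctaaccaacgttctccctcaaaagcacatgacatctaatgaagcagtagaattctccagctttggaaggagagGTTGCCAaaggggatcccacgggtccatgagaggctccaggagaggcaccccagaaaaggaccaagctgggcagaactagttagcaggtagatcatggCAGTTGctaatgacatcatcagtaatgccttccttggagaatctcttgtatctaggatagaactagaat
1700041C23Rik (chr9:57175025-57175274, plus strand): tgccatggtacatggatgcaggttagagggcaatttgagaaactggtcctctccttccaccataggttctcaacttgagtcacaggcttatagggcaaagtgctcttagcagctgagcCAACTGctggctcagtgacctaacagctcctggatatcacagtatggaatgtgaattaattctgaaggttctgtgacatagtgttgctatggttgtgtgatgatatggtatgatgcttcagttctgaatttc
4921513H07Rik (chr6:127778666-127778915, minus strand): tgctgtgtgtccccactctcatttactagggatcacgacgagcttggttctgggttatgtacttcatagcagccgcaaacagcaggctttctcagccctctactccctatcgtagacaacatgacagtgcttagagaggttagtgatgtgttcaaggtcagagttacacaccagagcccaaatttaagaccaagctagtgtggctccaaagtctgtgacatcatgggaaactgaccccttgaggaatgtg
The match to GTTGCCA begins 200 bases before the start in 1700091H14Rik and 167 bases before in 4930555G01Rik. A match to CAGTTG begins 69 bases before the start in 4930555G01Rik and, on the other strand, 132 bases before in 1700041C23Rik. The promoters of 1700091H14Rik and 4930555G01Rik share a run of 15 bases, agctttggaaggaga, just before GTTGCCA, and no other of the 120 pairs among the 16 promoters of the largest rises and falls that had an entry shared more than 11. Both genes lie on chromosome 14, in regions known for near-identical gene copies.

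A promoter window of 300 bases, from 250 before to 50 after the most upstream start, was found for 1355 RIKEN genes, which share 1342 distinct windows, each counted once. GTTGCCA was present on either strand in 10.03% of 648 windows of RIKEN genes called higher in spermatids, in 6.40% of 250 called lower, in 4.96% of 444 not called and in 4.47% of all 27025 windows in the table. CAGTTG was present in 17.7% of windows of genes called higher, 12.4% of those called lower, 16.0% of those not called and 13.6% of all. TGACGTCA, the cAMP response element bound by CREM, a regulator of spermatid genes, was present in 2.01%, 2.0%, 3.15% and 1.85%. The first 2 motifs can overlap by 4 letters, as CAGTTGCCA, which was in 0.93% of windows of genes called higher, 0.80% of those called lower, 1.13% of those not called and 0.46% of all. CpG dinucleotides had a median of 4 per window in RIKEN genes called higher, 13 in those called lower, 18 in those not called and 7 over all windows. By clone library, GTTGCCA was in 9.91% of 747 windows of genes with a testis clone prefix and 4.87% of 595 with another prefix, and CAGTTG in 20.6% and 10.6%. These shares describe letters in the windows and do not show binding.

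Autosomal RIKEN clone genes were more often higher in spermatids than lower. Of the 1944 genes, 936 (48.1%) were called higher in spermatids and 362 (18.6%) lower, at a limma adjusted p below 0.05 and at least a 2-fold change, while 646 were not called. Over all 28735 tested models the shares were 32.5% higher and 29.8% lower. The median log2 fold change of the RIKEN genes was 0.85 (middle 50% of genes from −0.59 to 4.52), against −0.01 over all tested models. All 4 spermatid libraries lay above all 4 spermatocyte libraries for 980 RIKEN genes (50.4%, against 34.2% of all tested models), and below them for 392 (20.2%, against 32.2%). The groups overlapped for 572, and 55 of the called genes were among these. Without spermatocyte libraries 3 and 4 the counts were 911 higher and 367 lower. With equal total reads per library, which moved the median of all tested models to −0.44, 861 were higher and 484 lower, and with quantile normalization, which moved it to −0.36, 878 were higher and 460 lower. Among the 1771 RIKEN genes that reached 10 in libraries of both cell types, 779 were higher and 346 lower, with a median of 0.58. The Sertoli marker sum fell and the macrophage marker sum rose over the same groups, as given above. In bulk samples, fewer cells of a type and less RNA per cell cannot be told apart.

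The size of the rises set the distribution. A rise of at least 4 on the log2 scale was called for 591 RIKEN genes (30.4%, against 12.5% of all tested models), whereas a fall of at least that size was called for 20 (1.03%, against 5.44%). Predicted genes with Gm symbols were nearest to the RIKEN genes among the other autosomal models: 45.1% of 781 were higher and 21% lower, with a median of 0.79. Of 15043 autosomal models with other symbols 31.9% were higher and 21.9% lower, and of 10078 without a symbol 26.4% were higher and 46.0% lower.

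The direction of change differed by clone library. Of the 1077 genes with a testis clone prefix, 687 (63.8%) were higher and 119 (11.05%) lower in spermatids, with a median log2 fold change of 3.66, and 504 (46.8%) rose by at least 4 on the log2 scale. Of the 867 genes with other prefixes, 249 (28.7%) were higher and 243 (28.0%) lower, with a median of −0.15, and 87 (10.03%) rose by at least 4. The level threshold itself kept 95.3% of the 1130 autosomal models with a testis prefix and 60.3% of the 1438 others. Genes with the prefix of 1700001F09Rik had 286 higher and 35 lower of 426, those with the prefix of 4930440C22Rik 274 and 50 of 427, and those with the prefix of 4933406J08Rik 73 and 22 of 126. Over the 6 testis prefixes with at least 15 genes, the share called higher ran from 47.6% (10 of 21, the prefix of 4932438A13Rik) to 67.1%. Among the 20 other prefixes with at least 15 genes, the share called higher ran from 5.88% to 46.7%. Without spermatocyte libraries 3 and 4 the testis prefixes had 667 higher and 134 lower, and the others 244 and 233. With equal total reads the other prefixes had 210 higher (24.2%) and 317 lower (36.6%). The shares over all tested models were 27.8% and 37.4% in that setting, and 32.5% and 29.8% with the authors' scaling.

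**Figure D1:**
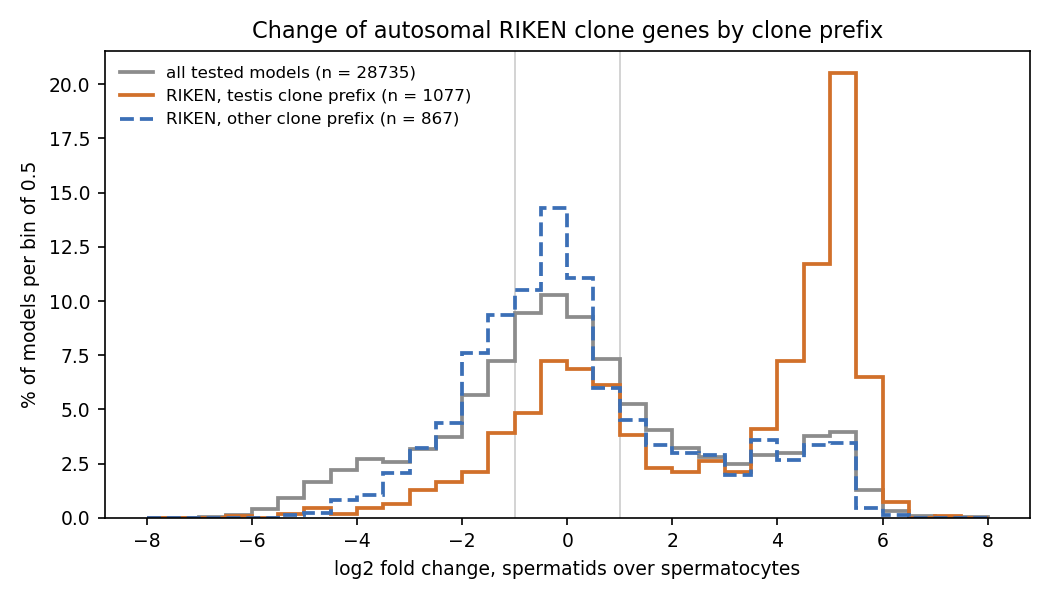
Share of models (percent, vertical axis) in bins of 0.5 of the log2 fold change of spermatids over spermatocytes (horizontal axis) for 1077 RIKEN clone genes with a testis clone prefix, 867 with another prefix and all 28735 tested models; vertical lines mark a 2-fold change. The testis prefix genes have a peak between 5 and 5.5 that holds 20.5% of them, against 3.46% of the other RIKEN genes and 3.98% of all tested models.

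Shares for coding and noncoding RIKEN genes lay close together within each kind of clone library. Of 277 protein-coding genes with a testis prefix 184 were higher and 25 lower (median 2.67), and of 639 lncRNAs with a testis prefix 393 were higher and 79 lower (median 3.69). Among other prefixes, 94 of 330 coding genes were higher and 83 lower (median 0.01), and 121 of 399 lncRNAs were higher and 119 lower (median −0.23). RefSeq types were known for the 1699 genes that matched RefSeq, 1287 by symbol and 412 through a synonym; 245 did not match.

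RIKEN clone genes took up a larger part of the spermatid libraries. Together they held 5.86%, 5.82%, 5.11% and 5.67% of all normalized counts in the 4 spermatocyte libraries. In the 4 spermatid libraries they held 7.63%, 8.19%, 8.45% and 8.50%. The groups did not overlap. Genes called higher went from 0.74% to 0.91% of a spermatocyte library to 4.79% to 5.63% of a spermatid library, and genes called lower from 1.31% to 1.43% down to 0.19% to 0.24%. Genes not called held 2.94% to 3.64% in spermatocytes and 2.60% to 2.97% in spermatids. Spermatid libraries resembled each other more than spermatocyte libraries did: the median coefficient of variation of a RIKEN gene was 20.97% over spermatid libraries and 29.8% over spermatocyte libraries, and Spearman correlations across the 1944 genes, which are not independent, were 0.983 to 0.994 within spermatids, 0.959 to 0.987 within spermatocytes and 0.567 to 0.655 between the cell types. Both measures depend on level, and 157 genes reached 10 normalized counts only in spermatid libraries against 16 only in spermatocyte libraries. The part of level in this difference was not tested.

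**Figure D2:**
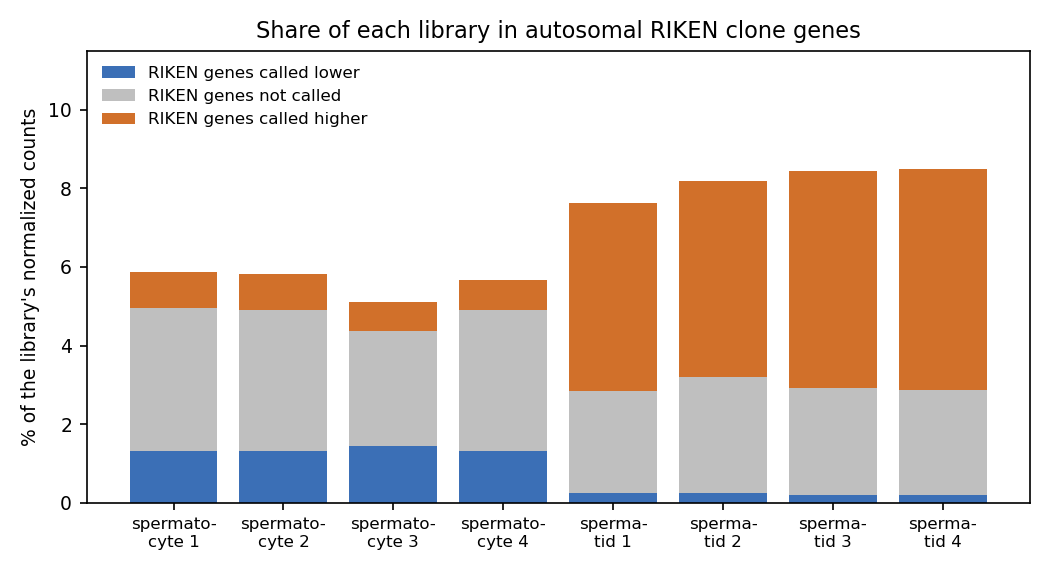
Percent of each library's normalized counts (vertical axis, from 0) in autosomal RIKEN clone genes for 4 spermatocyte and 4 spermatid libraries, stacked by whether the gene was called lower, not called or called higher in spermatids. The part called higher is at most 0.91% in spermatocyte libraries and at least 4.79% in spermatid libraries; the calls were made on the same libraries, so the direction of the called parts follows from the choice.

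The most abundant of the largest rises was 1700001F09Rik, a protein-coding gene (chr14:43342384-43347813). It had 675, 982, 592 and 425 normalized counts in spermatocyte libraries and 31754, 60033, 52002 and 40918 in spermatid libraries, a log2 fold change of 6.13 ± 0.27 (SE; limma adjusted p = 2.2e-09). Every spermatid library was far above every spermatocyte library. 1700091H14Rik, an lncRNA on the same chromosome (chr14:42089750-42095278), had 142, 93.2, 76.0 and 74.2 in spermatocytes and 4335, 9270, 5442 and 4394 in spermatids (5.89 ± 0.29, adjusted p = 5.4e-09). The coding gene 4930555G01Rik (chr14:5050628-5059243) had 80.6, 56.9, 68.2 and 0 in spermatocytes and 1231, 2204, 1450 and 987 in spermatids (5.88 ± 1.20, adjusted p = 0.0012). Its 0 in spermatocyte library 4 set much of that size: the log2 fold change was 4.35 without that library, 4.35 without libraries 3 and 4, and 6.47 without library 1. All 3 genes lie in chromosome 14 regions known for near-identical copies, where reads may be divided among copies in a way the counting does not show, so their levels are uncertain.

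Of the other 6 large rises described here 5 were lncRNAs. 1700041C23Rik (chr9:57175274-57186106) had 51.6, 67.7, 57.0 and 37.7 in spermatocyte libraries and 2877, 3290, 3133 and 2734 in spermatid libraries, with the smallest standard error among the 10 largest rises (5.81 ± 0.23, adjusted p = 1.2e-09; 5.15 after a correction for GC content). 4930440C22Rik (chr1:94797439-94802472) had 17.7, 34.3, 31.3 and 1.14 against 876, 1085, 1055 and 1110 (6.14 ± 0.71, adjusted p = 7.5e-06). Spermatocyte library 4 held a single read of it, and the log2 fold change was 5.21 without that library, 5.32 without libraries 3 and 4, and 4.99 after the GC correction. 1700099I09Rik (chr13:102760263-102761896) lies opposite Mast4, a microtubule-associated kinase gene, and had 78.2, 122, 91.7 and 10.3 against 2370, 4068, 4058 and 4581 (6.02 ± 0.61, adjusted p = 2.2e-06). It was also lowest in spermatocyte library 4, and its log2 fold change was 5.24 without that library and 5.21 without libraries 3 and 4. The other lncRNAs were 4930583P06Rik (5.89 ± 0.40), which lies opposite the semaphorin gene Sema6d, and 4930513D17Rik (5.88 ± 0.48). With a library left out, their lowest log2 fold changes were 5.51 and 5.33. 1700007E05Rik, which RefSeq gives as neither coding nor lncRNA, had 60.4, 103, 77.2 and 20.6 against 2994, 4799, 4062 and 3744 (6.07 ± 0.41, adjusted p = 7.2e-08). Its lowest log2 fold change with a library left out was 5.60. Spermatocyte library 4 was the lowest spermatocyte library for each of the large rises given so far. The largest rises were chosen among genes whose groups of libraries did not overlap, so the lack of overlap follows from the choice.

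Larger folds were found for genes of lower level, chosen here after their values were seen. 4930448D08Rik, with no RefSeq match, had 4.84, 3.93, 0 and 0 in spermatocyte libraries and 259, 397, 327 and 488 in spermatid libraries, a fitted log2 fold change of 7.28. 4930448I06Rik, an lncRNA, had 2.42, 1.96, 2.24 and 0 against 171, 229, 206 and 225 (6.44). Both passed the level threshold only through their spermatid libraries and so had to differ, and no test is given for them. Their spermatocyte values are a few reads per library, so the fitted size depends on the added count of 1. No read was found in any spermatocyte library for 5 RIKEN genes, and none of the 1944 was without reads in all spermatid libraries.

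**Figure D3:**
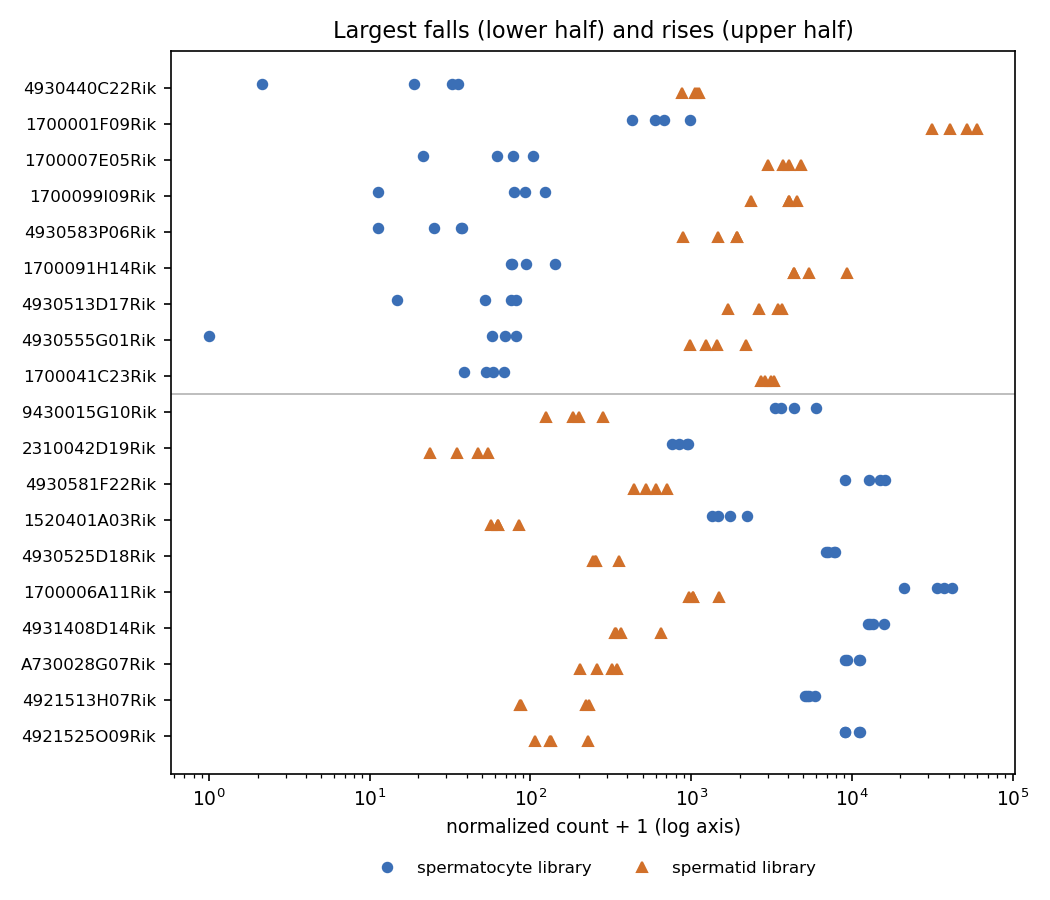
Normalized count + 1 (horizontal log axis) of 9 of the 10 largest rises (upper block) and the 10 largest falls (lower block) among RIKEN clone genes, with a point for each of 4 spermatocyte libraries (circles) and 4 spermatid libraries (triangles). The genes were chosen among those whose groups do not overlap, so the gap between the groups follows from the choice. Spermatocyte library 4 is the lowest point for each of the 9 rises, down to 1.14 normalized counts for 4930440C22Rik and 0 for 4930555G01Rik.

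The largest fall was that of 4921525O09Rik, an lncRNA (chr13:52096739-52124160). It had 9107, 9069, 11141 and 11194 normalized counts in spermatocyte libraries and 133, 227, 105 and 132 in spermatid libraries, a log2 fold change of −6.13 ± 0.24 (SE; limma adjusted p = 1.1e-09). 4921513H07Rik, an lncRNA (chr6:127776084-127778322), had 5895, 5252, 5380 and 5133 against 220, 232, 85.6 and 86.0 (−5.27 ± 0.33, adjusted p = 3.8e-08). Both were high and even over the spermatocyte libraries. A730028G07Rik (chr8:104258234-104261286), which RefSeq names Cklf, had 11159, 11285, 9273 and 9063 against 347, 321, 203 and 257 (−5.20 ± 0.20, adjusted p = 1.2e-09). Cklf encodes a chemokine-like factor with a MARVEL domain. Its RefSeq promoter ends at chr8:104250860, upstream of the counted model, so the counts may cover only part of the gene. 1700006A11Rik, a coding gene (chr3:124400990-124426040), was the most abundant of these before its fall, with 33887, 37494, 41863 and 21065 against 1030, 1485, 1024 and 975 (−4.87 ± 0.23, adjusted p = 4.0e-09). The lowest spermatocyte library was still over 10 times as high as the highest spermatid library for this gene.

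4931408D14Rik (−5.07 ± 0.22) and 4930525D18Rik (−4.75 ± 0.18) were lncRNAs without a match in GENCODE, the reference used for position relative to coding genes. RefSeq places both on the minus strand. The coding gene 1520401A03Rik fell from a mean of 1697 to 66.0 (−4.66 ± 0.24). 4930581F22Rik, an lncRNA opposite the decapping enzyme gene Dcps, had 15983, 12744, 9031 and 15078 against 439, 704, 519 and 602 (−4.53 ± 0.22, adjusted p = 4.8e-09), and Dcps was lower too (−2.67). Their strands share a locus, so part of the reads could belong to either. A pair of falls lie in the same region of chromosome 4, with a gap between them. 9430015G10Rik (chr4:156109982-156127263) had 4383, 3615, 3321 and 6025 against 281, 199.99, 125 and 182 (−4.47 ± 0.27). 2310042D19Rik (chr4:156215925-156221307) had 761, 840.0, 945 and 949 against 53.7, 45.8, 22.5 and 33.7 (−4.52 ± 0.29). RefSeq names the latter Perm1, a regulator of energy metabolism known from muscle. Spermatocyte library 3, whose Sertoli marker sum was the highest, had the highest spermatocyte value for 1 of the 10 largest falls, 1700006A11Rik. Library 4, with the next highest Sertoli sum, was highest for 4921525O09Rik, 4931408D14Rik, 4930525D18Rik, 1520401A03Rik, 2310042D19Rik and 9430015G10Rik. The part of Sertoli cells in these falls was not tested.

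A list of 11 RIKEN genes of known role, chosen apart from the groups of later names below, had 1 gene called lower, with overlapping groups, and 0 called higher; over all tested models 32.5% were higher and 29.8% lower. The libraries of both cell types did not overlap for 3 of the other 10. 4930447C04Rik encodes Six6os1, a central element protein of the synaptonemal complex, the structure that joins paired chromosomes in meiosis. It had 347, 398, 811 and 14.8 normalized counts in spermatocyte libraries and 969, 205, 435 and 594 in spermatid libraries (log2 fold change 1.21 ± 1.05, limma adjusted p = 0.32). Library 4 was more than 20 times below every other spermatocyte library, and without it the log2 fold change was −0.02; it was 1.87 without library 3, 0.36 without libraries 3 and 4, and 0.23 after the GC correction. 1700028K03Rik, the mouse Spo16 protein needed for crossovers, had 1071, 974, 852 and 546 against 768, 661, 643 and 621 (−0.31 ± 0.23, adjusted p = 0.24). 4930432K21Rik, known as Brme1, a partner of the meiotic recombination machinery, had 6804, 7088, 4162 and 7952 against 6326, 10315, 8959 and 8370 (0.40 ± 0.23, adjusted p = 0.13). The groups overlapped for all 3 meiotic genes, so no difference beyond the spread of the libraries was found in this comparison.

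The other known genes act in RNA methylation, splicing, cilia and lipid transport. 1110037F02Rik (Virma, a subunit of the complex that writes N6-methyladenosine) had 1170, 1471, 1510 and 959 against 749, 829, 863 and 788; the groups did not overlap, but the change was below 2-fold (−0.64 ± 0.20, adjusted p = 0.011; −1.08 with equal total reads). 4932438A13Rik, which encodes a large lipid transfer protein, had 45677, 71561, 59491 and 40026 against 29752, 31104, 24967 and 30096 and also fell short of 2-fold (−0.87 ± 0.20, adjusted p = 0.0018). It passed 2-fold with equal total reads (−1.31), without spermatocyte library 4 (−1.004), after the GC correction (−1.10) and with quantile normalization (−1.36). 2310035C23Rik (Relch, a protein of endosomes that binds cholesterol carriers) had 1410, 1772, 2137 and 1489 against 1549, 486, 881 and 682. It was called lower (−1.03 ± 0.31, adjusted p = 0.0098), but the groups overlapped, and the call was lost in 6 alternatives with values from −0.95 to −0.78, among them those without spermatocyte library 3 (−0.92), without libraries 3 and 4 (−0.95), and without spermatid library 2 (−0.78) or 4 (−0.94). 4930402H24Rik had 796, 579, 606 and 440 against 1056, 1027, 1209 and 1107 (0.89 ± 0.21, adjusted p = 0.0021; 1.03, and called, without spermatocyte library 1). The remaining genes, 2810403A07Rik (Khdc4, a splicing-related RNA-binding protein), 2700049A03Rik (the ciliary protein Talpid3), 4933427D14Rik (a protein of centriolar satellites) and 1110004F10Rik (a small acidic protein), had log2 fold changes of 0.33 ± 0.17, −0.32 ± 0.22, −0.03 ± 0.20 and −0.28 ± 0.16, and none was called.

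RIKEN genes that have since been named for sperm or testis all rose. RefSeq lists 14 of them under symbols that begin with Spata, Tex, Spem or Spaca, and 14 of 14 were called higher, with a median log2 fold change of 4.47. All 14 carry a testis clone prefix. Of all RIKEN genes with such a prefix 63.8% were higher (median 3.66), against 32.5% of all tested models. Symbols of this kind are often given for expression in testis, so the list is not independent of where the RNA is found. 1700015E13Rik (Spata46, a protein of the sperm nuclear envelope) had 529, 716, 677 and 622 normalized counts in spermatocyte libraries and 17721, 23598, 28579 and 25956 in spermatid libraries (5.22 ± 0.19, limma adjusted p = 9.8e-10). It lies opposite Nos1ap, which had a log2 fold change of 1.04. 1700065I17Rik (Tex43) had 216, 185, 188 and 232 against 7356, 6889, 8071 and 7007 (5.16 ± 0.17, adjusted p = 9.5e-10). The smallest rise among the 14 was that of 1700019B03Rik (Tex45) with 2.35 ± 0.21.

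RIKEN genes renamed for cilia and the flagellum changed in both directions. These were 25 models of 21 genes, of which 8 (32%) were higher, 6 (24%) lower and 11 not called, with a median of 0.04. Over all tested models 32.5% were higher and 29.8% lower, so this list divided much as all models did. 1700006E09Rik (Cfap97d1, a protein of the sperm flagellum) had 283, 273, 358 and 204 against 7791, 9194, 14071 and 13459 (5.29 ± 0.24, adjusted p = 2.9e-09). 1700101E01Rik (Cfap77, a protein inside axonemal microtubules) had 54.0, 80.5, 87.2 and 77.6 against 1953, 2612, 3082 and 2465 (5.06 ± 0.23, adjusted p = 3.2e-09). In the other direction, 2 models of Cfap46, a protein of the central pair of the axoneme, were lower. E030019B06Rik had 8270, 7958, 6971 and 10908 against 1738, 2824, 2301 and 2041 (−1.94 ± 0.20, adjusted p = 2.7e-06), and 9330101J02Rik had −1.61 ± 0.22. 4922501C03Rik (Cep162, a protein of centrioles and the base of the cilium) had 856, 1000, 1128 and 814 against 308, 250, 237 and 285 (−1.80 ± 0.20, adjusted p = 5.7e-06). The 3 models of Cfap54, another protein of the central pair, were not called, with log2 fold changes of −0.22, −0.09 and 0.04. Scaling moved this list: 4 were higher and 7 lower with equal total reads, likewise with quantile normalization, and 5 and 6 without spermatocyte libraries 3 and 4. It also moved all tested models, to 27.8% higher and 37.4% lower with equal total reads, and to 29.1% and 36.3% with quantile normalization.

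The 3 RIKEN genes renamed for meiosis had lower levels in spermatids. 1700123I01Rik (Majin, which fastens telomeres to the nuclear envelope) had 809, 908, 1280 and 1041 against 300.02, 193, 227 and 188 (−2.15 ± 0.23, adjusted p = 4.2e-06). 4933406J08Rik (Terb2, its partner in that complex) had 648, 603, 985 and 406 against 382, 120, 122 and 233 (−1.72 ± 0.39, adjusted p = 0.0017; −2.34 after the GC correction). 4930404A10Rik (Meikin, a kinetochore protein of meiosis I) had 1620, 1757, 1941 and 1827 against 855, 1143, 1085 and 1031; its groups did not overlap, but the change of −0.80 ± 0.17 was below 2-fold and it was not called. All 3 were called lower with equal total reads, and likewise with quantile normalization.

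Genes named by sequence family alone, such as coiled-coil (Ccdc) or transmembrane (Tmem) proteins, had 15 of 27 higher, 5 lower and a median of 1.33. These shares were 55.6% and 18.5%, against 48.1% and 18.6% of the 1944 RIKEN genes and 32.5% and 29.8% of all tested models. 1700007K09Rik (Fam24b) had 289, 366, 335 and 208 against 9877, 14734, 16610 and 15578 (5.57 ± 0.23, adjusted p = 1.5e-09), and 4921530D09Rik (Ccdc183) had 882, 1024, 1191 and 910 against 24608, 37293, 45763 and 42011 (5.19 ± 0.21, adjusted p = 1.5e-09). The largest falls were those of 1600002K03Rik (Fam174c), from 140, 120, 252 and 193 to 81.5, 21.5, 22.5 and 40.3 (−2.21 ± 0.43, adjusted p = 5.6e-04), and of 4930451C15Rik (Lrrc74b), from 35.5, 31.4, 90.6 and 52.5 to 10.7, 14.02, 18.02 and 11.97 (−1.76 ± 0.41, adjusted p = 0.0018). The groups of libraries did not overlap for any of these 4 genes.

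**Figure D4:**
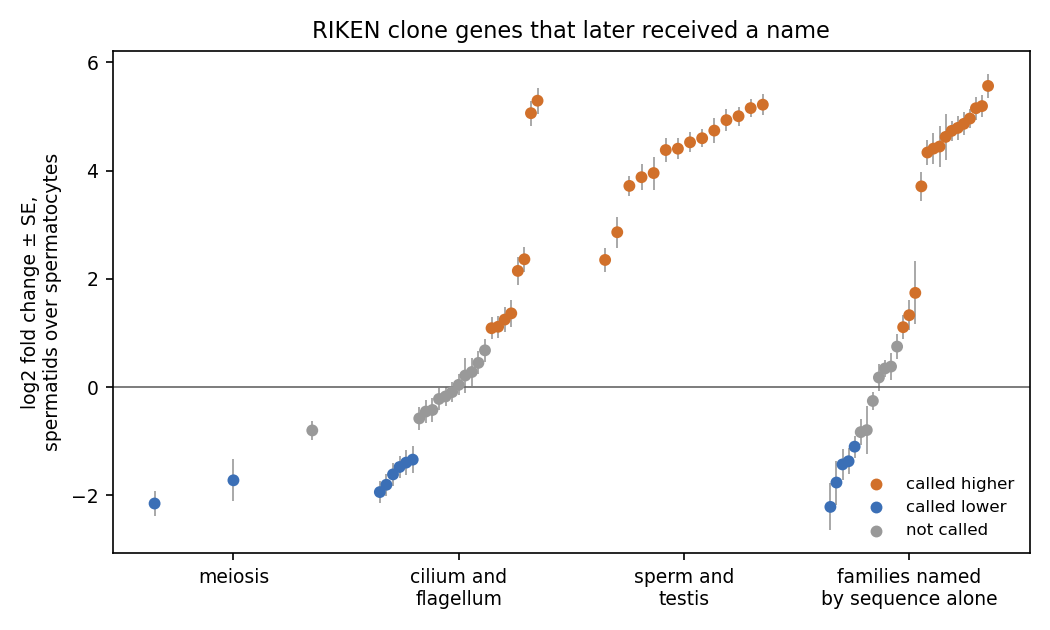
Log2 fold change of spermatids over spermatocytes (vertical axis, bars ± SE, n = 4 libraries of each) for RIKEN clone genes that later received a name, by group of names; colours give the call. All 14 sperm and testis genes lie above 2, the cilium and flagellum models run from −1.94 to 5.29, and the 3 meiosis genes lie below 0.

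Position relative to coding genes was known for the 1811 genes with a matched strand. Of 939 RIKEN genes apart from coding genes 502 were higher and 167 lower (median 1.46). Of 619 that overlap a coding gene on the opposite strand 276 were higher and 106 lower (0.63), and of 174 that start within 1000 bases of a coding gene and point away from it 59 were higher and 41 lower (0.13). Of 79 that overlap a coding gene on the same strand 41 were higher and 14 lower.

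RIKEN genes and their coding neighbours mostly moved the same way where both were called. Among 162 divergent pairs with a tested partner both were called in 46, with the same direction in 37 (28 both higher, 9 both lower). Across these 162 pairs the log2 fold changes of both had a Pearson r of 0.53 and a Spearman rho of 0.44; pairs share libraries, and no test was made. Among 535 opposite-strand pairs both were called in 215 and moved the same way in 182 (139 both higher, 43 both lower), with an r of 0.49 and a rho of 0.47. In both kinds of pair rises outnumbered falls among RIKEN genes and among partners. Some shared direction would arise from that alone, and its share was not worked out. The libraries were made with a kit that marks strand, but the strand setting of the counting is not given, so reads of overlapping genes may be shared.

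Examples of divergent pairs were chosen after their values were seen. The lncRNA 1700027I24Rik starts 31 bases from Acrv1, the gene of an acrosomal protein, and their log2 fold changes were 5.80 and 5.40. 4930507D10Rik starts 65 bases from Spaca3, the gene of an acrosomal lysozyme-like protein, with 5.39 and 5.29. 4930467K11Rik starts 34 bases from Hsf2, a heat shock factor gene of germ cells, with 5.35 and 3.83. 1700040D17Rik starts 354 bases from Tdrkh, a gene of the piRNA pathway, with −3.90 and −1.03. Some pairs moved apart: the coding gene 1700029J07Rik had 4.85 while Ufsp2, 276 bases away, had −1.64, and the lncRNA 5033430I15Rik had −3.60 while Atxn1, 245 bases away, had 2.87.

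RefSeq names 88 of the RIKEN genes as opposite-strand transcripts of a host gene, and 44 of them were higher and 14 lower. Of 80 with a tested host, 25 were higher together with it and 7 lower together with it. In 14 cases the RIKEN gene was higher and the host was not called. In 2 cases the RIKEN gene was higher and the host lower: 4930505H01Rik opposite Nudt12 had 5.56 against −1.39, and 4930405P13Rik opposite Scpep1 had 1.27 against −2.12. In another 2 the RIKEN gene was lower and the host higher: A730085A09Rik opposite Kank4 had −2.32 against 1.78, and 5730577I03Rik opposite Fbxl12 had −1.27 against 1.51. These 4 were chosen for their opposite calls, so their differences are a description.

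**Figure D5:**
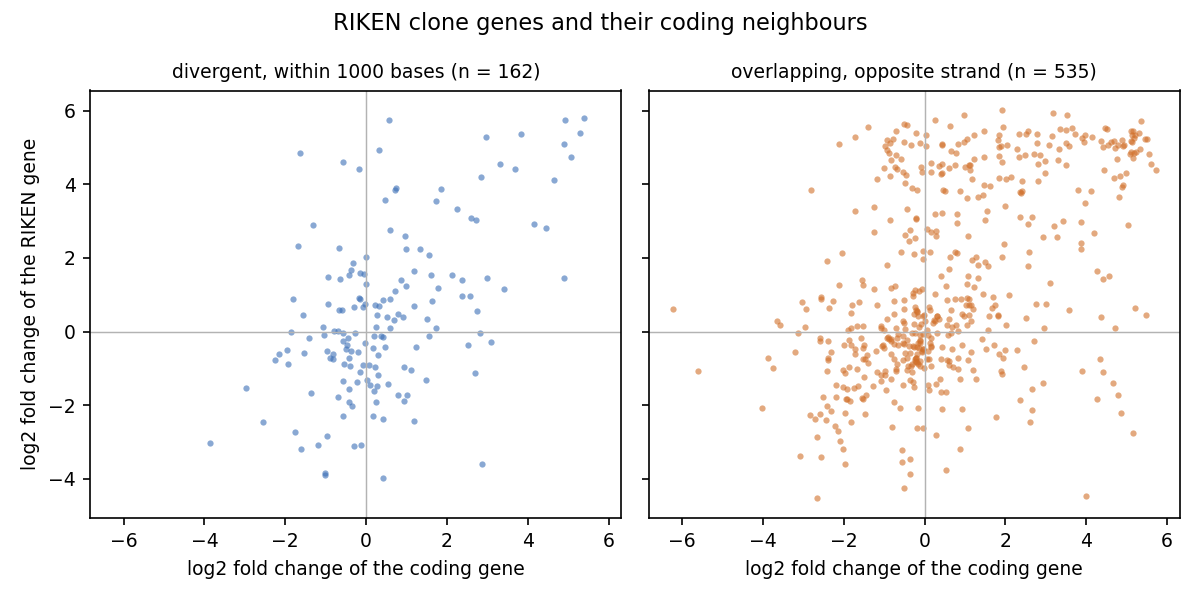
Log2 fold change of spermatids over spermatocytes for RIKEN clone genes (vertical axis) against that of the coding gene beside them (horizontal axis), for 162 divergent pairs within 1000 bases (left) and 535 pairs that overlap on opposite strands (right). The points rise together in both panels (Pearson r 0.53 and 0.49), and the right panel holds a band of RIKEN genes above 4 whose partners range from below 0 to above 4.

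The 6 most abundant RIKEN genes per kilobase of exon in each cell type were chosen after their values were seen; none of the 6 highest in spermatocytes was called, whereas 2 of the 6 highest in spermatids were called higher. In spermatocytes the highest mean was that of A730098P11Rik (Morf4l1-ps1), which its name gives as a pseudogene, so that reads of the parent gene may be included. It had 181590, 180420, 122590 and 122150 normalized counts in spermatocyte libraries and 134270, 203670, 188010 and 173090 in spermatid libraries (log2 fold change 0.21, limma adjusted p = 0.36), with overlapping groups. 2210404O07Rik (Smim24, a small membrane protein) came next in spermatocytes with 81731 per kilobase against 74967 in spermatids (−0.12, adjusted p = 0.58). 4922502D21Rik (Clec2m, a C-type lectin family gene) had 57025 and 79735 per kilobase (0.47, adjusted p = 0.054). In spermatids 1700019M22Rik and 1700013G24Rik joined the 6 highest: the former went from 2662 to 89777 per kilobase (log2 fold change 5.03) and the latter from 2209 to 71918 (5.004). 1700008K24Rik, an lncRNA among the 6 highest in spermatocytes, went from 48922 to 24093 per kilobase; its log2 fold change of −0.999 (adjusted p = 3.7e-04) lay just short of the 2-fold threshold.

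With the authors' scaling, RIKEN genes on every autosome were more often higher than lower. The share called higher ran from 38.8% on chromosome 9 (45 of 116, with 28 lower) to 65.3% on chromosome 14 (62 of 95, with 15 lower), and the median log2 fold change from 0.23 on chromosome 9 to 4.34 on chromosome 14. Over all autosomal tested models 31.4% were higher and 30.4% lower, and their shares by chromosome were not worked out. Chromosome 14 has regions of near-identical copies, as given above, where reads may be divided among copies. At the level threshold, the genes just kept were A530050N04Rik, 8030453O22Rik and A230070E04Rik, with a fourth-highest value of 10.1, 10.3 and 10.5 normalized counts. The genes just left out were 6530411M01Rik, 5930403N24Rik and 4932441J04Rik, with 9.67, 9.80 and 9.81.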

How the data were processed

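The deposited normalized gene table holds 8 libraries used here, 4 of spermatocytes and 4 of spermatids. Its values are signal, namely read counts that the authors divided by a size factor per library with DESeq, per the file headers. STAR 2.4.0, SAMtools, Picard, FastQC and the mm10 build are named in the submitters' processing notes. The counter is not given in the sources used here, nor is its strand setting. A further 8 columns hold per-sample values and were not used. Every value above 0 was a whole multiple of its library's step (100% within 10% of the step), so whole reads could be recovered: 49000266 to 93975960 per library. A floor of 3 reads equals 2.42 to 4.50 normalized counts and covers counting error only.

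Models that reached 10 normalized counts in 4 or more of the 8 libraries were tested on log2(normalized count + 1) with limma 3.58.1 in R 4.3.3 (trend and robust moderation, all 8 libraries, no covariate), with Benjamini-Hochberg adjustment over all 28735 tested models. A call needed an adjusted p below 0.05 together with a log2 fold change of 1 or more in either direction. Every adjusted p in the text is from this limma fit unless another tool is named. The test was checked on simulated data. edgeR 4.0.16 and DESeq2 1.42.0 on the recovered reads were alternatives, beside other pseudocounts, filters, scalings and left-out libraries.

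Replicate numbers follow the order of the records. Separate animals are not stated in the labels, and p-values therefore cover only the spread between these libraries, which may be technical. Replicate libraries were not copies of each other (smallest chi-square per degree of freedom over the RIKEN genes 11.95).

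Symbols were matched to RefSeq (GRCm38.p6) and GENCODE by symbol or synonym on the same chromosome with overlapping coordinates. The genes and lists were chosen with earlier results of these data known. Named genes are the 10 largest rises and the 10 largest falls that were called, reached a mean of 500 normalized counts in the higher group and had groups that did not overlap, a list of 11 genes of known role, the 2 largest rises and 2 largest falls in each group of later names, and the 3 genes on either side of the level threshold. Other genes are named as chosen after their values were seen. A further gene among the largest rises is not reported here.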

Additional observations from a re-analysis of the deposited data

Results flagged for a closer look

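Groups of 4 libraries were examined for a library far from the other 3 for each named gene, 86 groups in all, and 3 of them had one. Chance alone marks about 1 in 20 such groups. All 3 were spermatid library 2, and all 3 genes are among the largest falls. 4931408D14Rik had 649 normalized counts in that library against 335 to 366 in the other spermatid libraries. 1700006A11Rik had 1485 against 975 to 1030, and 4930525D18Rik had 352 against 243 to 255. Each stayed far below its spermatocyte level. That rate is for groups taken separately and does not cover that all 3 were the same library. The cause was not tested.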

How the results depend on the processing

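The counts of RIKEN genes called higher or lower stayed within 1.5 times of 936 and 362 in the 21 alternatives run: 813 to 1070 higher and 299 to 484 lower. The extremes came from a filter of 50 normalized counts (813 and 299), no filter (1070 higher) and equal total reads (484 lower). Leaving out a library at a time gave 922 to 951 higher and 343 to 361 lower. edgeR called 931 and 357, and DESeq2 932 and 363. Of all called RIKEN genes 72.1% were higher, against 64.0% with equal total reads and 65.6% with quantile normalization. The alternatives without spermatocyte libraries 3 and 4 (911 and 367), with a GC correction (863 and 334) and with the genes that have a GC value (878 and 327) were chosen after seeing the data; 93.2% of the RIKEN genes had such a value.

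Of 898 values for the 43 named genes, 879 kept their direction and their side of the threshold, 6 lost a call, 6 gained one and 7 changed sign. The changes of sign were in genes that were not called. Without spermatocyte library 4, 4930447C04Rik had −0.019 and 4933427D14Rik 0.062; the latter had 0.14 without spermatid library 1. With equal total reads 4930432K21Rik had −0.033 and 2810403A07Rik −0.11, and with quantile normalization they had −0.13 and −0.067. Over all libraries left out in turn, 4930447C04Rik ran from −0.019 to 1.87 and 4933427D14Rik from −0.12 to 0.14. The cause was not tested. No paired analysis was possible because the labels carry no replicate numbers. Where spermatocyte levels are low, the fitted size of a rise rests on few reads. Of the 936 genes called higher, 93 had no read in spermatocyte library 4, against 32, 47 and 53 in libraries 1 to 3.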

Other observations

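RIKEN genes of the same chromosome region did not all move together. In windows of 5 Mb with at least 8 RIKEN genes, 66 in all, the median share called higher was 44.4%. On chromosome 11 from 80 to 85 Mb 6 of 8 were higher and 1 lower, among them 4930507D10Rik (log2 fold change 5.39). On chromosome 4 from 155 to 160 Mb 0 of 9 were higher and 4 were lower; this window holds 9430015G10Rik and 2310042D19Rik (Perm1), both among the largest falls. Only 3 of the 66 windows had at most 1 gene called higher. The windows were ordered by their values, so these are descriptions with no test.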
